A study of Homo sapiens with 12 samples.

Results

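The 71 genes described here encode nuclear subunits of the oxidative phosphorylation complexes, out of 16599 genes in a count table of A549 and H1650 cells, both established lines from human lung adenocarcinoma. They were taken by symbol (the NDUFA, NDUFB, NDUFC, NDUFS, NDUFV, SDH, UQCR, COX4I to COX8 and ATP5 families and CYC1) among protein-coding genes, with pseudogenes and NDUFAF assembly factors left out. Complex I gave 30 members, complex II 3, complex III 9, complex IV 14 and complex V 15, and all 71 passed the filter on low counts. Polyadenylated RNA was sequenced from A549 cells over-expressing SRSF2, untreated A549 cells, H1650 cells over-expressing SRSF2 and untreated H1650 cells, with 3 libraries in each of the 4 groups. SRSF2 is a splicing factor of the serine/arginine-rich family. The treatment label of the control cells reads untreated, and the NC in their titles is not spelled out. The vector or promoter behind the over-expression, any clonal selection and whether replicates were separate cultures are not given in the sources used here, and p-values may therefore reflect technical spread alone. SRSF2 RNA itself was not analysed here.

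In oxidative phosphorylation, complex I takes electrons from NADH and complex II takes them from succinate. Ubiquinone carries them to complex III, and cytochrome c carries them on to complex IV, which reduces oxygen. The proton gradient built by complexes I, III and IV drives complex V, the ATP synthase. Some core subunits of complexes I, III, IV and V are encoded by mitochondrial DNA and were not analysed here, as were 20 nuclear genes of the same families, among them NDUFV2, SDHD, COX8A and ATP5MC1. The genes below supply the remaining subunits, which are made in the cytosol and imported.

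Total counts ran from 23876899 to 32079027 per library. Spread within groups, as edgeR's biological coefficient of variation, was 0.0559 for H1650 SRSF2 against 0.0338 for untreated H1650, and 0.0344 for A549 SRSF2 against 0.0298 for untreated A549. Within H1650 SRSF2, replicate 3 lay closest to the untreated libraries on the second principal component (-33.8, against -45.2 and -42.3 for replicates 1 and 2), and counts without it are given below. All 6 epithelial markers were detected, with summed levels of 9270 to 10400 CPM. Summed fibroblast markers (2 of 6 analysed here) reached 22.8 CPM, leukocyte markers (1 of 6) 6.41 CPM and muscle markers (1 of 5) 10.8 CPM, and 0 of 4 endothelial and 0 of 3 erythroid markers were analysed. Levels are given as CPM (counts per 1000000 after TMM scaling), fold changes are SRSF2 over untreated on the log2 scale with their standard error (SE), and calls rest on an adjusted p below 0.05 in edgeR's quasi-likelihood test over 15991 genes. In bulk RNA, less RNA per cell and fewer cells with that RNA cannot be told apart.

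SRSF2 over-expression left most subunit genes near their untreated level. In A549 cells 2 members were called higher and 11 lower (18.3% of members), beside 32.3% of all genes tested (16.4% higher and 15.9% lower). In H1650 cells 12 members were called higher and 19 lower (43.7%), beside 62.3% of all genes (31% higher and 31.3% lower). The median log2 fold change of the members was -0.05 in A549 and -0.03 in H1650, and the median of all genes tested was 0.00 in both lines. Changes within 0.25 of 0 on the log2 scale made up 97.2% of members and 66.4% of all genes in A549, and 81.7% of members and 37.3% of all genes in H1650. Under plain library totals in place of TMM, 5 members were called higher and 32 lower in H1650, beside 25.7% and 37.2% of all genes. Without H1650 SRSF2 replicate 3, 10 members were called higher and 17 lower in H1650. Members called higher there numbered 7 without SRSF2 replicate 2 or untreated replicate 2, and 8 without untreated replicate 1. In A549, members called lower numbered 5 without untreated replicate 3, 7 without SRSF2 replicate 3, and 17 with RLE factors or DESeq2, and members called higher numbered 0 without SRSF2 replicate 1 or untreated replicate 1, and 1 without SRSF2 or untreated replicate 2. Side by side, 8 members were lower in both lines, and 2 (COX7B and ATP5IF1) were lower in A549 and higher in H1650. Another 37 were called in neither line. The same split was not made over all genes, so these counts cannot be set against a share of all genes.

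Summed over members, subunit RNA stood at 7169 ± 194 CPM in A549 SRSF2 cells and 7478 ± 149 CPM in untreated A549 cells (SD, n = 3 each), a ratio of 0.959. In H1650 the sum was 6777 ± 172 CPM in SRSF2 cells and 7227 ± 113 CPM in untreated cells, a ratio of 0.938. By complex, the H1650 ratio ran from 0.737 to 1.065. Complex II stood at 397 ± 18.2 CPM in SRSF2 cells and 539 ± 10.2 CPM in untreated cells, a ratio of 0.737, and SDHA alone made up 207 and 335 CPM of these sums. Complex V stood at 2005 ± 31.2 CPM against 2210 ± 24.5 CPM (ratio 0.907), and complex IV at 1167 ± 38 CPM against 1095 ± 22.9 CPM (ratio 1.065). These sums and ratios rest on TMM scaling. As a share of total counts, without TMM, complex IV ranged from 0.1054 to 0.1138% in H1650 SRSF2 libraries. Untreated H1650 libraries ranged from 0.1082 to 0.1115%, so the groups overlapped. For all members the ranges were 0.6173 to 0.6571% in SRSF2 and 0.7164 to 0.7322% in untreated H1650 libraries.

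**Figure D1:**
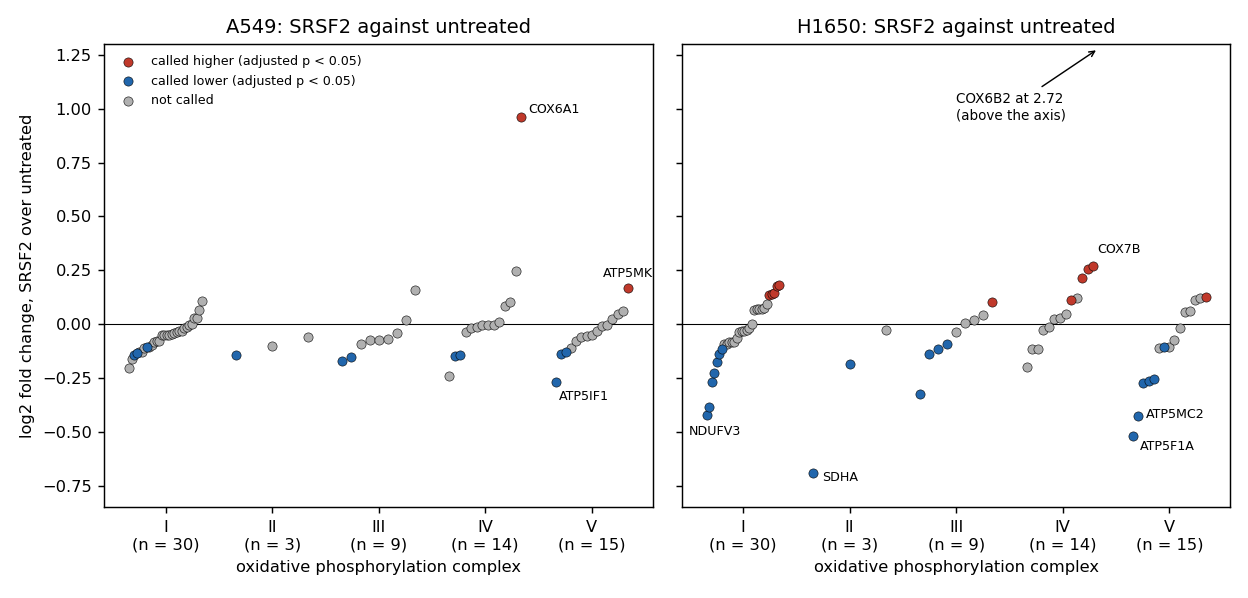
log2 fold change (SRSF2 over untreated) of the 71 members by complex in A549 and H1650, each point a gene, coloured by its call at an adjusted p under 0.05 in edgeR. In H1650 the called members of complexes II and V lie below 0 apart from ATP5IF1, and those of complex IV lie above it; COX6B2, at 2.72, lies above the axis.

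Complex I, the NADH dehydrogenase, had falls in the catalytic subunit NDUFV1 and the accessory subunit NDUFV3 in H1650, and its other accessory subunits went both ways. Of its 30 members, 5 were called higher and 7 lower in H1650, and 0 higher and 3 lower in A549. The shares of all genes called higher and lower were 31% and 31.3% in H1650 and 16.4% and 15.9% in A549. The NADH-binding subunit NDUFV1 had 116, 122 and 123 CPM in H1650 SRSF2 libraries, against 143, 144 and 149 CPM in untreated libraries, and the groups did not overlap (log2 fold change -0.27 ± 0.039 SE, edgeR adjusted p = 2.18e-07). In A549 it had 124, 124 and 120 CPM in SRSF2 libraries, against 132, 132 and 132 CPM in untreated libraries, also without overlap (-0.11 ± 0.039, edgeR adjusted p = 0.0327). Leaving out any A549 library other than SRSF2 replicate 1 ended the A549 call, with an adjusted p of up to 0.115 without SRSF2 replicate 3. The catalytic subunits NDUFS1, NDUFS3, NDUFS7 and NDUFS8 were not called in either line and had log2 fold changes of -0.03, -0.08, 0.03 and 0.07 in A549 and -0.08, -0.08, -0.06 and 0.07 in H1650.

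NDUFV3, an accessory subunit beside the NADH site that is made as a short and a long isoform, fell most among complex I genes in H1650. It had 22.8, 25.6 and 24.5 CPM in H1650 SRSF2 libraries, against 32.6, 32.5 and 32.5 CPM in untreated libraries, a change of -0.42 ± 0.059 (edgeR adjusted p = 1.53e-07). In A549 it had 34.6, 33.3 and 31.8 CPM in SRSF2 libraries, against 31.7, 31.0 and 30.0 CPM in untreated libraries. The A549 groups did not overlap, with SRSF2 above, but the change of 0.11 ± 0.058 was not called (edgeR adjusted p = 0.171). The table counts whole genes, so the isoforms were not told apart.

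NDUFB11, a membrane-arm subunit, rose in H1650 to 81.0, 89.6 and 82.8 CPM, against 71.9, 74.8 and 76.6 CPM in untreated libraries (0.18 ± 0.045, edgeR adjusted p = 5.79e-04). NDUFS4, a peripheral-arm subunit needed for a stable complex, rose to 49.0 ± 1.75 CPM against 43.4 ± 1.46 CPM (0.18 ± 0.051, edgeR adjusted p = 0.00307). The NDUFS4 call ended under plain library totals (edgeR adjusted p = 0.102) and in the FPKM fits. NDUFA5, NDUFA12 and NDUFB3, further accessory subunits, made up the other rises, with changes of 0.14 each. All 3 calls ended under plain totals and in the FPKM fits, and those of NDUFA12 and NDUFB3 also with no filter and with DESeq2. In turn, the 3 calls held in 9, 7 and 8 of 12 leave-one-out fits. NDUFAB1, the mitochondrial acyl carrier protein, stood at 118 ± 5.42 CPM in H1650 SRSF2 cells and 133 ± 1.25 CPM in untreated cells and was called lower (-0.18 ± 0.041, edgeR adjusted p = 3.01e-04). The membrane-arm accessory subunits NDUFB7 (-0.23), NDUFB10 (-0.14) and NDUFB4 (-0.12) were also called lower, and the call ended without H1650 SRSF2 replicate 1 or untreated replicate 3 for NDUFB10, and without these, SRSF2 replicate 3 or untreated replicate 2 for NDUFB4. By arm, the peripheral arm had 3 called higher and 3 lower of 13 in H1650, and the membrane arm 2 higher and 3 lower of 16, with NDUFAB1 counted apart.

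Complex II, succinate dehydrogenase, showed the deepest fall of any member in H1650, in its flavoprotein SDHA, which oxidises succinate and also serves the citric acid cycle. SDHA had 190, 208 and 222 CPM in H1650 SRSF2 libraries, against 326, 333 and 345 CPM in untreated libraries. The groups were far apart, and the change was -0.69 ± 0.043 (edgeR adjusted p = 5.37e-16), between -0.75 and -0.64 when any 1 library was left out. In A549 it had 168, 175 and 180 CPM in SRSF2 libraries, against 194, 194 and 190 CPM in untreated libraries, a change of -0.14 ± 0.043 (edgeR adjusted p = 0.00987), and this call ended without A549 SRSF2 replicate 1 (adjusted p = 0.0677) and in the FPKM fits (0.0645 to 0.0678). The anchor subunit SDHC fell in H1650 (86.8 ± 1.35 against 98.8 ± 0.66 CPM, -0.19 ± 0.041, edgeR adjusted p = 1.75e-04). The iron-sulfur subunit SDHB did not pass the test, with 101, 106 and 103 CPM against 105, 105 and 107 CPM in H1650. Side by side in H1650, the log2 fold changes were -0.69 for SDHA, -0.19 for SDHC and -0.03 for SDHB.

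SDHA shares sequence with transcribed pseudogenes, and reads may be split between them. SDHAP1, SDHAP3 and SDHAP4 stood at 49.1, 49.1 and 34.0 CPM in H1650 SRSF2 cells and 51.5, 58.7 and 44.7 CPM in untreated H1650 cells. Their log2 fold changes were -0.07, -0.26 and -0.39 (edgeR adjusted p = 0.252, 3.66e-04 and 6.57e-07), beside -0.69 for SDHA. The part of shared reads in the SDHA change was not tested. The 250 bases before the RefSeq start of SDHA (GRCh38.p14, chr5:218070-218319, plus strand) are shown because SDHA fell furthest in H1650, with 4 copies of a 9-letter repeat in capitals.
SDHA: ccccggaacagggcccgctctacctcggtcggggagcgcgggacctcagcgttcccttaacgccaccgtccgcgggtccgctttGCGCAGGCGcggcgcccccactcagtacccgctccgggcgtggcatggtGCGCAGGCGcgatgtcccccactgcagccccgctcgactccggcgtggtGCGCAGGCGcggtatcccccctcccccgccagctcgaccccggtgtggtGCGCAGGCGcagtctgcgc
The repeat, GCGCAGGCG, was searched on both strands after this window had been read. It occurs at least once in 9 of 56 member windows (16.1%) and in 4.12% of 27305 RefSeq windows. Of all windows, 11 (0.0403%) hold 4 or more copies. SDHA, the source of the letters, is among the 9 members and among the 11 windows with 4 or more copies. The member share and the count of 11 were therefore partly set by that choice. The windows were not matched for base content, and the shares are description only.

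Complex III passes electrons from ubiquinol to cytochrome c, and of its 4 redox and core proteins 3 were called lower and 0 higher in H1650, beside 31.3% and 31% of all genes, and 1 was called lower in A549. The core protein UQCRC2 was not called in H1650 (-0.04, edgeR adjusted p = 0.392). The other core protein, UQCRC1, was called there (-0.09, edgeR adjusted p = 0.0331), but the call ended when any H1650 library other than SRSF2 replicate 2 was left out (adjusted p up to 0.142). Cytochrome c1 (CYC1) had 256, 276 and 262 CPM in H1650 SRSF2 libraries, against 321, 319 and 353 CPM in untreated libraries, without overlap (-0.32 ± 0.039, edgeR adjusted p = 7.12e-09). In A549 it had 236, 240 and 238 CPM in SRSF2 libraries, against 264, 261 and 268 CPM in untreated libraries (-0.15 ± 0.039, edgeR adjusted p = 0.00279). CYC1 was thus lower in SRSF2 cells of both lines, and both calls held in every alternative and leave-one-out fit. The Rieske iron-sulfur protein UQCRFS1 stood at 151 ± 8.71 CPM in H1650 SRSF2 cells and 164 ± 1.08 CPM in untreated cells (-0.12 ± 0.039, edgeR adjusted p = 0.0107), a call that ended without H1650 SRSF2 replicate 1 (adjusted p = 0.0609). Among 5 small subunits, UQCRB was called higher (0.10, edgeR adjusted p = 0.0361) and UQCR10 lower in H1650. The UQCRB call held in 2 of 9 alternatives and ended with RLE factors, plain totals, no filter, DESeq2, the FPKM fits and 4 of 12 leave-one-out fits (adjusted p up to 0.682). UQCR10 was also lower in A549 (45.1 ± 2.47 against 50.8 ± 2.93 CPM, -0.17 ± 0.054, edgeR adjusted p = 0.0136). UQCR10 lost its call without untreated replicate 3 of the same line, with an adjusted p of 0.124 in A549 and 0.15 in H1650, and in A549 also without SRSF2 replicate 3 (0.102). UQCRH and its near-identical copy UQCRHL did not pass the test in either line, and reads may be split between them.

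Complex IV, cytochrome c oxidase, had 5 of 14 members called higher and 0 lower by edgeR in H1650, a share called higher of 35.7%, near the 31% of all genes, and 31.3% of all genes were called lower. The count of lower members was 0 also at an unadjusted p under 0.05 and with DESeq2, which called 4 higher. COX5B, 1 of the 5 called higher (0.11, edgeR adjusted p = 0.0335), had overlapping groups. Its call held in 3 of 9 alternatives and 9 of 12 leave-one-out fits. In A549, 1 was called higher and 2 lower. Under plain library totals the H1650 split was 4 higher and 2 lower, and the median of the 14 was -0.04 instead of 0.04. COX7B, a small subunit of the holoenzyme encoded on the X chromosome, moved in opposite directions in the lines. It had 119, 119 and 114 CPM in A549 SRSF2 libraries, against 130, 126 and 135 CPM in untreated A549 libraries (-0.15 ± 0.043, edgeR adjusted p = 0.00663). In H1650 it had 98.4, 107 and 96.6 CPM in SRSF2 libraries, against 81.9, 84.9 and 83.5 CPM in untreated libraries (0.27 ± 0.044, edgeR adjusted p = 2.18e-06). Neither line showed overlap between groups, although the A549 call ended without untreated replicate 3 (adjusted p = 0.0565). The 250 bases before its RefSeq start (GRCh38.p14, chrX:77899218-77899467, plus strand) are shown because of this opposite movement, and they hold none of the motif letters searched below.
COX7B: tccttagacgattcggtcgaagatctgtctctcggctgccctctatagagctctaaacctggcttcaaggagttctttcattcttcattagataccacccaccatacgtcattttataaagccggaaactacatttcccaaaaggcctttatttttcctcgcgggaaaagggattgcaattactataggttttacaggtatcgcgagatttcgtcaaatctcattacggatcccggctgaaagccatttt

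COX7A2L, a factor that joins complexes III and IV into supercomplexes, had 104, 104 and 99.6 CPM in H1650 SRSF2 libraries, against 85.7, 85.8 and 87.2 CPM in untreated libraries (0.25 ± 0.046, edgeR adjusted p = 1.30e-05). COX6C, another small subunit, stood at 156 ± 4.71 CPM against 134 ± 3.62 CPM in H1650 (0.21 ± 0.044, edgeR adjusted p = 6.69e-05). All SRSF2 libraries of both genes lay above all untreated ones. In A549 neither was called (0.10 and -0.02). COX6C has 17 annotated pseudogenes, the most among the 43 members that have any, so its reads may be shared with copies. Reads of the other such members may be shared too, among them ATP5F1A with 7 annotated pseudogenes and ATP5MC2 with 5.

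The genes with tissue-restricted or alternative forms were near the bottom of the range. COX6B2, the testis form of COX6B, had 2.51, 2.42 and 2.32 CPM in H1650 SRSF2 libraries (63, 65 and 71 counts), against 0.289, 0.268 and 0.530 CPM (9, 8 and 16 counts) in untreated H1650 libraries. This was the largest fold change of any member, 2.72 ± 0.309 (edgeR adjusted p = 1.95e-09), at a level far below the common form COX6B1, which had 158 ± 8.49 CPM in H1650 SRSF2 cells and 155 ± 8.59 CPM in untreated H1650 cells. In A549 COX6B2 stayed at 0.204, 0.382 and 0.432 CPM in SRSF2 libraries, against 0.558, 0.459 and 0.204 CPM in untreated libraries, and the groups overlapped. COX6B2 (chr19:55349306-55354814, minus strand, GENCODE 29 on GRCh38) has 45.0% of its exon bases inside other annotated genes, the largest overlap being on the same strand. The cytokine gene IL11, named after its values were seen, lies 9574 bases upstream of it on the same strand. IL11 had 17.1, 16.4 and 17.2 CPM in H1650 SRSF2 libraries, against 5.72, 4.92 and 7.05 CPM in untreated libraries, and 9.36, 10.1 and 8.36 CPM in A549 SRSF2 libraries, against 6.77, 6.18 and 6.0 CPM in untreated ones. Other genes nearby, also named after their values were seen, went both ways in H1650. BRSK1 (log2 fold change 0.80) and RPL28 (0.33) were called higher there and TMEM238 (-0.51) lower. KMT5C, the nearest at 1185 bases from COX6B2, and TMEM190 were not called (-0.01 and 0.26). Whether reads that run on from IL11 enter the COX6B2 count was not tested.

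COX6A1 was the larger of the 2 rises called in A549, at 1.55, 1.18 and 0.942 CPM in SRSF2 libraries (38, 34 and 24 counts), against 0.384, 0.742 and 0.750 CPM (11, 21 and 22 counts) in untreated libraries. Its change of 0.96 ± 0.311 (edgeR adjusted p = 0.0164) ended without A549 SRSF2 replicate 1 (adjusted p = 0.104) or untreated replicate 1 (0.110). COX6A1 encodes the widely expressed form of its subunit, yet 92.0% of its exon bases lie inside other annotated genes, so its count is uncertain. The largest of these overlaps is with a gene on the same strand. COX7A1, the heart and muscle form, and NDUFA4L2, a paralog of NDUFA4, averaged between 0.806 and 1.51 CPM in the 4 groups and were not called in either line. The common forms COX4I1, COX5A, COX7A2 and NDUFA4 were also not called, with log2 fold changes between -0.03 and 0.12. COX6B1, which faces the intermembrane space, was lower in A549 (194 ± 8.04 against 214 ± 5.91 CPM, -0.14 ± 0.044, edgeR adjusted p = 0.0110), a call that ended without SRSF2 replicate 3 (adjusted p = 0.0705) or untreated replicate 3 (0.0661) and in the FPKM fits.

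**Figure D2:**
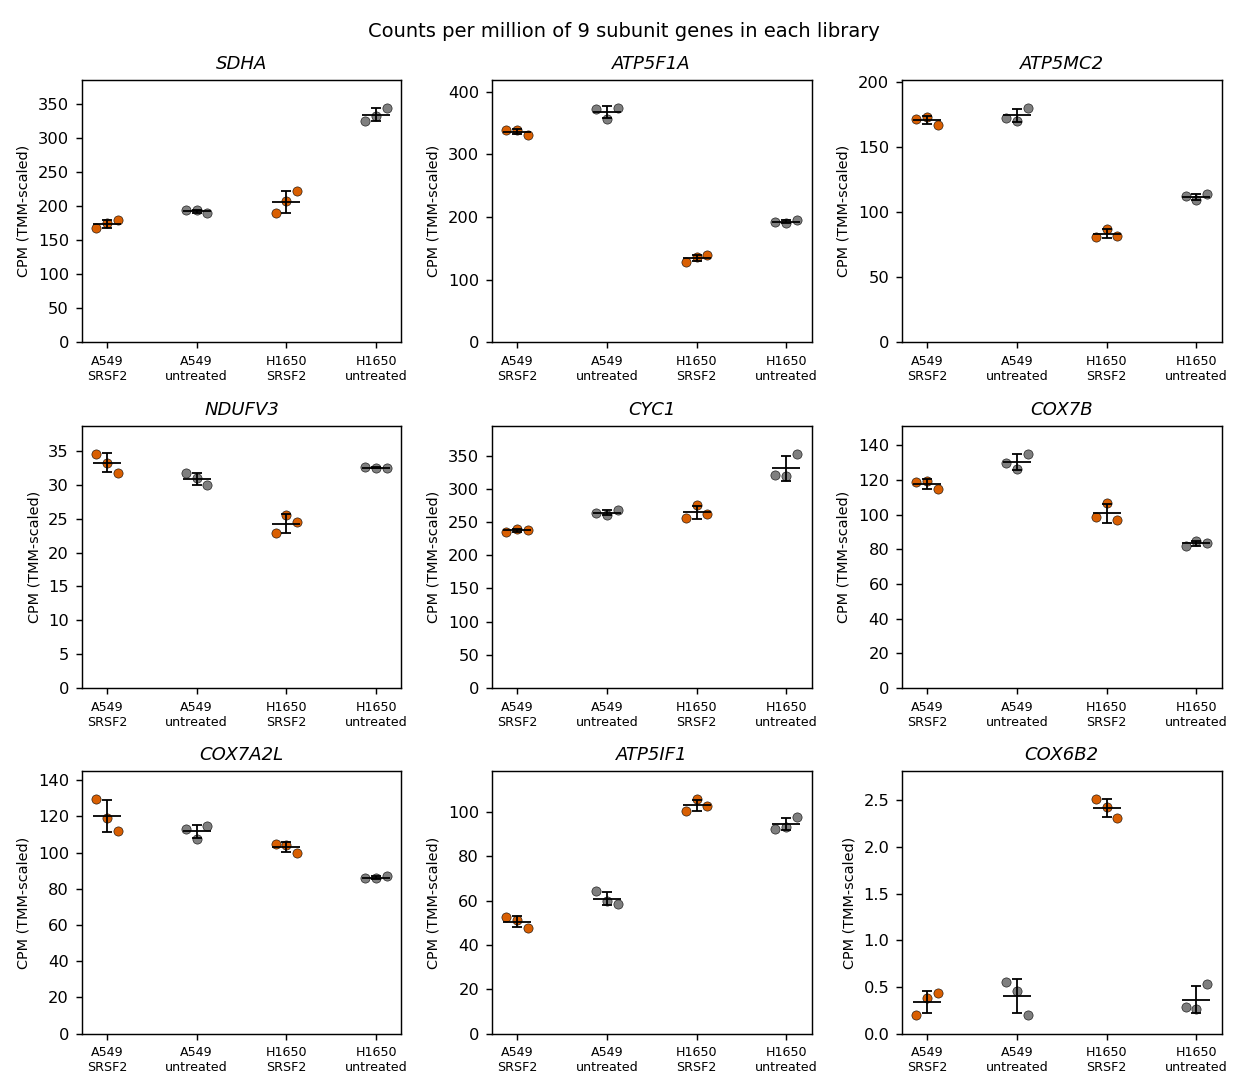
CPM (TMM-scaled) of 9 members in each of the 12 libraries, with points for libraries, horizontal bars for the mean and error bars for the SD of 3 libraries. SDHA, ATP5F1A, ATP5MC2, NDUFV3 and CYC1 are lower in H1650 SRSF2 libraries than in untreated ones, COX7A2L and COX6B2 are higher there, and COX7B and ATP5IF1 are lower in A549 and higher in H1650.

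Complex V, the ATP synthase, had falls in H1650 in some genes of its catalytic head and in both c-ring genes analysed. Of 5 members of the F1 head, 3 were called lower and 0 higher in H1650, beside 31.3% and 31% of all genes, while ATP5F1D (-0.11) and ATP5F1E (0.06) were not called. The alpha subunit ATP5F1A had 128, 136 and 139 CPM in H1650 SRSF2 libraries, against 191, 191 and 195 CPM in untreated libraries, a change of -0.52 ± 0.038 (edgeR adjusted p = 4.67e-14). In A549 it had 339, 339 and 332 CPM in SRSF2 libraries, against 373, 357 and 375 CPM in untreated libraries (-0.13 ± 0.036, edgeR adjusted p = 0.00533). SRSF2 libraries lay below untreated ones in both lines, and both calls held in every alternative and leave-one-out fit. Its partner in the catalytic head, the beta subunit ATP5F1B, moved less: 716 ± 8.99 CPM in H1650 SRSF2 cells and 772 ± 8.44 CPM in untreated cells (-0.11 ± 0.031, edgeR adjusted p = 0.00319), and 867 ± 18.6 and 904 ± 7.54 CPM in A549, where it was not called. The gamma subunit ATP5F1C was lower in H1650 (160 ± 5.58 against 194 ± 4.11 CPM, -0.28 ± 0.044, edgeR adjusted p = 1.32e-06).

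ATP5MC2 and ATP5MC3 encode the same mature subunit c of the rotor ring with different import signals. ATP5MC2 had 81.3, 87.4 and 81.3 CPM in H1650 SRSF2 libraries, against 113, 109 and 114 CPM in untreated libraries (-0.43 ± 0.041, edgeR adjusted p = 5.59e-11). In A549 it had 172, 173 and 167 CPM in SRSF2 libraries, against 173, 170 and 180 CPM in untreated libraries, and the groups overlapped (-0.03 ± 0.039). ATP5MC3 was lower in H1650 (123 ± 5.84 against 148 ± 6.99 CPM, -0.26 ± 0.043, edgeR adjusted p = 2.04e-06) and in A549 (165 ± 3.97 against 182 ± 6.21 CPM, -0.14 ± 0.042, edgeR adjusted p = 0.0108). The A549 call of ATP5MC3 ended without SRSF2 replicate 3 (adjusted p = 0.0556) or untreated replicate 3 (0.0616). The peripheral-stalk subunit ATP5PB was lower in H1650 (123 ± 5.75 against 146 ± 2.24 CPM, -0.25 ± 0.041, edgeR adjusted p = 2.42e-06). The 4 small membrane subunits had no call in H1650, and ATP5MK was called higher in A549 (65.3 ± 5.0 against 58.1 ± 2.79 CPM, 0.17 ± 0.055, edgeR adjusted p = 0.0168) although its groups overlapped. That call ended when SRSF2 replicate 1 (adjusted p = 0.147) or 2 (0.0624) or untreated replicate 1 (0.0840) or 2 (0.0721) was left out, and in the FPKM fits.

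The inhibitor ATP5IF1, which binds the ATP synthase and blocks ATP hydrolysis, was the 1 member of complex V called higher in H1650. It had 52.8, 51.1 and 47.7 CPM in A549 SRSF2 libraries, against 64.3, 59.9 and 58.5 CPM in untreated A549 libraries (-0.27 ± 0.049, edgeR adjusted p = 5.03e-05), and this call held in every alternative and leave-one-out fit. In H1650 it had 101, 106 and 103 CPM in SRSF2 libraries, against 92.4, 93.3 and 97.5 CPM in untreated libraries. The H1650 groups did not overlap, but the rise was small (0.12 ± 0.045, edgeR adjusted p = 0.0168) and ended under plain library totals (adjusted p = 0.405), in the FPKM fits, without SRSF2 replicate 2 (0.0682), and without untreated replicate 1 (0.0729) or 2 (0.0516).

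The 250 bases before the RefSeq starts of ATP5F1A (GRCh38.p14, chr18:46104228-46104477, minus strand) and ATP5MC2 (chr12:53676084-53676333, minus strand) are shown as the members of complex V that fell most in H1650. Capitals mark the letters CGCATGCGC, the NRF1 motif searched below read on its other strand.
ATP5F1A: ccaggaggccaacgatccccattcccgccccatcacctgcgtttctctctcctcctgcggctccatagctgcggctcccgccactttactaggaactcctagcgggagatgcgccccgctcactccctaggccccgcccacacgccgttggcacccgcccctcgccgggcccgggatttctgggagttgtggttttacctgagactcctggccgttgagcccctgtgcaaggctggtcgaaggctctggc
ATP5MC2: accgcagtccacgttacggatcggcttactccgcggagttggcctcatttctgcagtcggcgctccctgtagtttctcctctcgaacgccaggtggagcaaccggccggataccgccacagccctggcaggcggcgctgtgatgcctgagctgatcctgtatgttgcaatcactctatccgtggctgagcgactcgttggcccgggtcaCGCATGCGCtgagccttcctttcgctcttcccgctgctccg
ATP5F1A held none of the motifs in this window, and ATP5MC2 held 1, starting 41 bases before the start.

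The effect of SRSF2 differed between the lines for 18 members (25.4%), 10 with a higher and 8 with a lower effect in A549 than in H1650, beside 47.5% of all genes (24% higher and 23.5% lower). Under plain library totals these were 15 and 5 members, beside 29.2% and 19.4% of all genes. The H1650 effect is subtracted from the A549 effect, and each line has its own controls. SDHA differed by 0.55 ± 0.061 (edgeR adjusted p = 3.04e-09), NDUFV3 by 0.53 ± 0.083 (2.38e-06), ATP5MC2 by 0.40 ± 0.057 (5.26e-07) and ATP5F1A by 0.39 ± 0.052 (1.46e-07) and each of the 4 was lower relative to its controls in H1650. Lower effects in A549 were led by COX6B2 (-2.96 ± 0.544, edgeR adjusted p = 2.62e-05), COX7B (-0.42 ± 0.061, 6.74e-07) and ATP5IF1 (-0.39 ± 0.067, 7.92e-06). The differences of these 7 genes held in every alternative and leave-one-out fit. COX6A1 had the largest positive difference, 1.08 ± 0.445 (edgeR adjusted p = 0.0456), and it ended when any of 7 libraries was left out, with an adjusted p of up to 0.141 without H1650 untreated replicate 3, and also with DESeq2 (0.0722) and a replicate block within each line (0.0525). Genes lower in both lines without a called difference included UQCR10 and NDUFB10, with differences of -0.03 ± 0.074 and 0.01 ± 0.063.

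**Figure D3:**
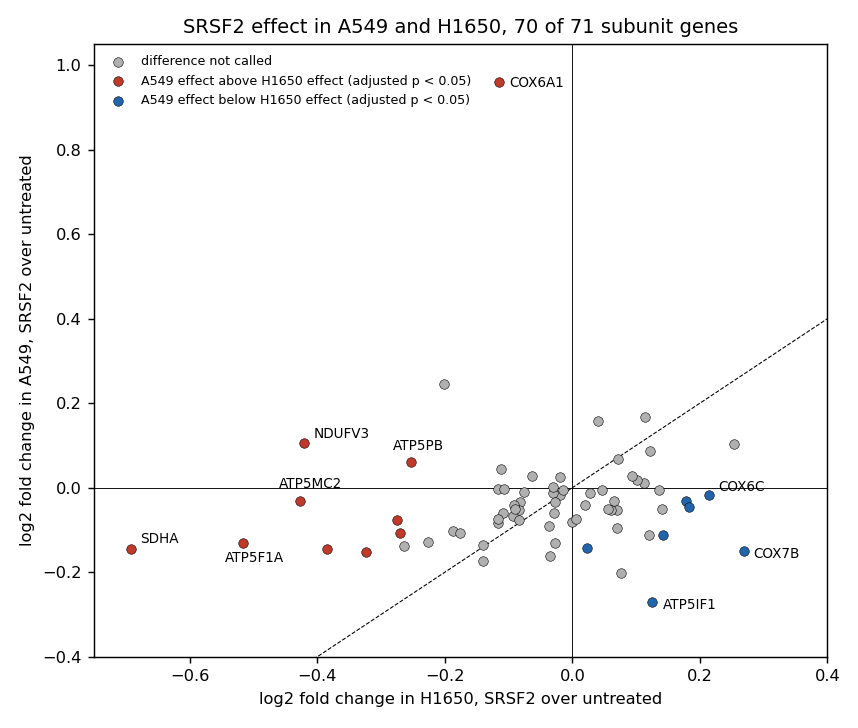
log2 fold change (SRSF2 over untreated) in A549, vertical axis, and in H1650, horizontal axis, for 70 members, leaving out COX6B2; the dashed line marks equal effects and colours mark called differences. SDHA, ATP5F1A, ATP5MC2 and NDUFV3 lie to the left, and COX7B and ATP5IF1 lie at the lower right.

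Untreated H1650 and untreated A549 cells differed in 57 of the 71 members, 24 higher and 33 lower in H1650 (80.3%, beside 82.4% of all genes, 40.1% higher and 42.3% lower). All 3 complex II genes were higher in H1650, and complex IV had 1 higher and 9 lower. Summed over members, complex II stood at 539 ± 10.2 CPM in untreated H1650 cells and 368 ± 1.68 CPM in untreated A549 cells (ratio 1.47), and complex IV at 1095 ± 22.9 and 1351 ± 39.7 CPM (ratio 0.810). SDHA itself averaged 335 ± 9.55 CPM in untreated H1650 cells and 193 ± 2.04 CPM in untreated A549 cells (0.80 ± 0.043, edgeR adjusted p = 2.19e-18). With 207 ± 16.1 CPM, H1650 SRSF2 cells thus lay closer in SDHA to untreated A549 cells than to untreated H1650 cells.

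Single complexes held genes that differed in opposite directions between the untreated lines. In the F1 head, the epsilon subunit ATP5F1E was higher in H1650 (242 ± 8.55 against 121 ± 5.56 CPM in A549, 1.00 ± 0.041, edgeR adjusted p = 1.35e-21), and the alpha subunit ATP5F1A was lower (193 ± 2.30 against 368 ± 9.87 CPM, -0.94 ± 0.037, edgeR adjusted p = 2.28e-22). In complex III, UQCR10 was higher in H1650 (0.84 ± 0.051) and UQCRFS1 lower (-0.84 ± 0.039). In complex I, NDUFAB1 was higher (0.89 ± 0.042) and NDUFB10 lower (-0.78 ± 0.044), and the membrane subunit ATP5MG of complex V was higher (0.89 ± 0.045). For ATP5MG, 100% of the exon bases lie inside another annotated gene on the same strand, and it has 8 annotated pseudogenes, so its count is uncertain. COX5A, the subunit that binds the thyroid hormone T2 in the bovine enzyme, was lower in H1650 (84.3 ± 1.67 against 143 ± 3.83 CPM, -0.76 ± 0.041, edgeR adjusted p = 3.63e-18).

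**Figure D4:**
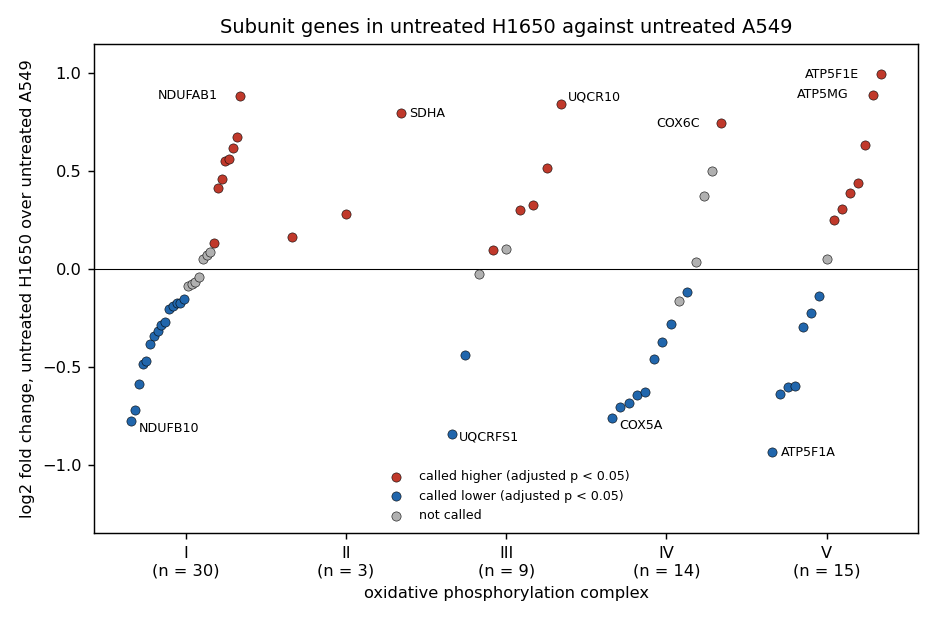
log2 fold change (untreated H1650 over untreated A549) of the 71 members by complex, coloured by the edgeR call at an adjusted p under 0.05. Complexes I, III and V hold genes on both sides of 0, all 3 complex II genes lie above it and 9 of the 14 complex IV genes are called lower.

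Levels of different genes were compared per kilobase of exon (the union of GENCODE 29 exons). ATP5F1B was highest in all 4 groups, with 373 and 389 CPM per kb in A549 SRSF2 and untreated cells and 308 and 333 CPM per kb in H1650 SRSF2 and untreated cells. COX6B1, NDUFS5 and CYC1 followed it in each group. COX6A1, COX6B2 and NDUFA4L2 were the lowest 3 in each group, at under 1 CPM per kb. Exon overlap with other genes was noted beside the levels. At least 50% of the exon bases lie inside other genes for 8 members, which have a median of 31.8 CPM over all libraries, against 91.1 CPM for the other 63. The part of overlap in these levels was not tested.

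Members called in H1650 are described here by abundance and length. The median level in untreated H1650 cells was 145 CPM for the 19 members called lower (32.5 to 772 CPM), against 78.9 CPM for the 12 called higher (0.362 to 134 CPM) and 52.7 CPM for the 40 not called. Median exon length was 3383 bases for those called lower, 2625 bases for those called higher and 2215 bases for those not called. The part of level and length in the calls was not tested.

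Promoters of nuclear respiratory genes are known for sites of nuclear respiratory factor 1 (NRF1), of ETS factors such as GABPA and of YY1. RefSeq windows of 300 bases (250 before to 50 after the start) were found for 56 of the 71 members and for 27305 genes in all. The NRF1 letters GCGCATGCG, searched on both strands, were in 9 of 56 member windows (16.1%) and 2.1% of all windows. The ETS letters CCGGAAG were in 15 (26.8%) and 10.7%, and the YY1 letters AAGATGGCG in 6 (10.7%) and 1.85%. No hit of one motif overlapped a hit of another. At least 1 of these motifs was in 24 member windows (42.9%) and 13.6% of all windows. As for the SDHA repeat, the windows were not matched for base content, and these shares are description only. By call in H1650, the NRF1 letters were in 3 of 14 windows of members called lower, 0 of 10 called higher and 6 of 32 not called. In the same order, the ETS letters were in 1 of 14, 1 of 10 and 13 of 32 windows. The YY1 letters were in 1 of 14, 1 of 10 and 4 of 32. A link between motifs and calls was not tested.

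The sites of the 8 members with the NRF1 letters before the start are shown with 10 bases on each side, read so that the motif (capitals) runs forward, from GRCh38.p14. They differ in neighbouring bases and in distance from the start.
NDUFB4 (chr3:120596167-120596195, plus): agagcacttcGCGCATGCGcatatcaccg
ATP5ME (chr4:674336-674364, minus): gccgctgacgGCGCATGCGtgcgcccagc
NDUFS6 (chr5:1801351-1801379, plus): cagaagccgtGCGCATGCGttagcgctaa
ATP5F1C (chr10:7788145-7788173, plus): gggagcttcgGCGCATGCGcgctgaggcc
ATP5MC2 (chr12:53676106-53676134, plus): ggaaggctcaGCGCATGCGtgacccgggc
COX6A1 (chr12:120437884-120437912, minus): tttccttcgtGCGCATGCGtgtgccctcc
NDUFS7 (chr19:1383823-1383851, minus): gcggctcggaGCGCATGCGgaaaccggaa
ATP5PF (chr21:25735156-25735184, minus): cactcaaagaGCGCATGCGtacagagcaa
Of these 8 genes, NDUFB4, ATP5F1C and ATP5MC2 were called lower in H1650, with log2 fold changes of -0.12, -0.28 and -0.43, and the others were not called there.

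Of 14 regulators of mitochondrial genes tested, out of 15 listed, 4 were called higher and 2 lower in A549 (median 0.07). In H1650, 8 were called higher and 3 lower (median 0.25). The shares of all genes called were 32.3% in A549 (16.4% higher, 15.9% lower) and 62.3% in H1650 (31% higher, 31.3% lower). NRF1 was not called in either line, with 38.0, 37.5 and 37.6 CPM in H1650 SRSF2 libraries, against 36.7, 34.3 and 36.4 CPM in untreated libraries. PPARGC1B, a coactivator of mitochondrial biogenesis, had 7.93, 6.98 and 7.86 CPM in H1650 SRSF2 libraries, against 19.3, 18.8 and 21.6 CPM in untreated libraries (-1.39 ± 0.092, edgeR adjusted p = 3.77e-15), and was not called in A549. TFAM, the packaging and transcription factor of mitochondrial DNA, was higher in H1650 (29.7, 31.8 and 29.5 against 25.0, 24.4 and 23.5 CPM, log2 fold change 0.32) and not called in A549. ESRRA, a nuclear receptor of respiratory genes, was lower in both lines (-0.15 in A549 and -0.23 in H1650), and GABPA was higher in H1650 (0.18). PPARGC1A was at no more than 1.06 CPM in any library and was not called. PERM1, a muscle regulator of oxidative genes, was higher in both lines, at 5.98 ± 0.153 against 0.231 ± 0.068 CPM in A549 and 5.77 ± 0.351 against 2.83 ± 0.664 CPM in H1650. MYC, a general activator of growth genes, had log2 fold changes of 0.29 in A549 and 1.09 in H1650, both called.

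Assembly factors, which build the complexes without being part of them, were called as follows, beside 32.3% of all genes called in A549 (16.4% higher, 15.9% lower) and 62.3% in H1650 (31% higher, 31.3% lower). For complex I, 2 were higher and 3 lower of 18 in A549, and 2 higher and 7 lower in H1650 (medians -0.03 and -0.06), with NUBPL, an iron-sulfur carrier, at 6.44 ± 0.799 against 10.2 ± 0.227 CPM in H1650 (-0.67 ± 0.093). For complex II, 0 were higher and 2 lower of 3 in A549, and 1 higher and 2 lower in H1650. SDHAF1, which matures SDHB, was lower in A549 (-0.32) and higher in H1650 (0.40). For complex III, edgeR called 0 of 9 in A549 (1 at an unadjusted p under 0.05, 0 with DESeq2), and 2 higher and 4 lower in H1650. For complex IV, 1 was higher and 5 lower of 21 in A549, and 7 higher and 3 lower in H1650 (medians -0.05 and 0.07). COX19, which helps deliver copper, had 55.1 ± 3.38 CPM in H1650 SRSF2 cells and 23.2 ± 0.708 CPM in untreated cells (1.24 ± 0.060, edgeR adjusted p = 5.71e-19), and COX18, which inserts the mitochondrially encoded COX2, had 8.08 ± 0.776 and 15.1 ± 0.665 CPM (-0.90 ± 0.091, edgeR adjusted p = 1.24e-10). For complex V, edgeR called 0 of 4 in A549 (0 at an unadjusted p under 0.05, 0 with DESeq2), and 1 higher and 1 lower in H1650.

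Among the mobile electron carriers, cytochrome c (CYCS) had 431, 409 and 396 CPM in H1650 SRSF2 libraries, against 282, 294 and 290 CPM in untreated libraries (0.51 ± 0.043, edgeR adjusted p = 1.36e-12), and was not called in A549. CYC1, the complex III subunit that reduces it, was lower in the same libraries, as given above. Within the 15 genes of ubiquinone and cytochrome c, 1 was higher and 1 lower in A549 and 6 higher and 5 lower in H1650, beside 32.3% and 62.3% of all genes called in these lines. The chaperones COQ10A and COQ10B were higher in H1650 (0.85 and 0.63), and COQ4 and PDSS1, which make ubiquinone, were lower (-0.59 and -0.60).

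In the citric acid cycle, 0 were higher and 2 lower of 13 in A549, and 4 higher and 6 lower in H1650, beside 32.3% of all genes called in A549 and 62.3% in H1650. SUCLA2, the ATP-forming subunit of succinyl-CoA ligase, was higher in H1650 (61.2 ± 2.64 against 34.2 ± 0.773 CPM, 0.84 ± 0.049, edgeR adjusted p = 1.34e-16), and its GTP-forming counterpart SUCLG2 was lower (41.3 ± 1.70 against 56.7 ± 4.31 CPM, -0.46 ± 0.054, edgeR adjusted p = 5.16e-09). Fumarase (FH), the step after succinate dehydrogenase, was lower too (64.0 ± 0.657 against 80.4 ± 1.03 CPM, -0.33 ± 0.045, edgeR adjusted p = 7.65e-08). Of 18 factors for mitochondrial DNA and RNA, 3 were higher and 1 lower in A549 and 6 higher and 6 lower in H1650, with the RNA-binding protein LRPPRC at 144 ± 1.74 against 202 ± 4.12 CPM (-0.48 ± 0.036). Of 62 mitochondrial ribosomal proteins, 9 were higher and 7 lower in A549 and 18 higher and 19 lower in H1650, near the shares of all genes in H1650 (31% and 31.3%).

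**Figure D5:**
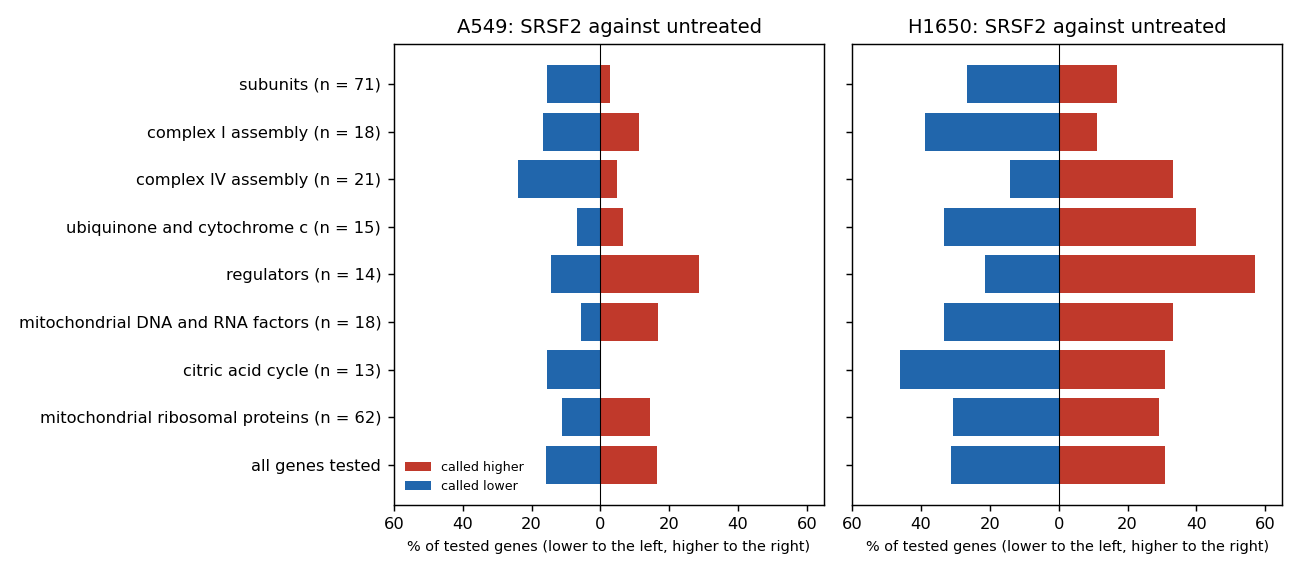
Share of tested genes called higher (to the right) and lower (to the left) in A549 and H1650 for the subunits, 7 related lists and all 15991 genes tested, in percent. In A549, 2 of 71 subunits are called higher beside 16.4% of all genes. In H1650 the bars of the regulators stand for 8 higher and 3 lower of 14, beside 31% and 31.3% of all genes.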

How the data were processed

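Polyadenylated RNA of A549 and H1650 cells, untreated or over-expressing SRSF2, was sequenced by the authors, with groups taken from the labels. The deposited table holds raw counts per gene. The submitters' processing notes name GRCh38, STAR 2.7.7a, featureCounts 2.0.0 and fastp 0.20.1. The annotation release and strandedness are not given in the sources used here, so reads of overlapping or antisense genes cannot be told apart. FPKM was computed by the authors out of these counts, per the deposited columns, with a length equal to the genomic span for 56 of the 71 members, and were used in alternatives only.

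The test was edgeR 4.0.16 under R 4.3.3 (filterByExpr, TMM, a quasi-likelihood fit of 12 libraries with 8 residual degrees of freedom, Benjamini-Hochberg over 15991 genes, threshold 0.05). It compared SRSF2 with untreated cells per line, the difference of these effects, and the untreated lines. The pipeline was tested on simulated data. Alternatives were RLE factors, plain totals, no filter, separate fits, a replicate block, DESeq2 1.42.0, limma 3.58.1 on log2(FPKM + 1) and log2(FPKM + 0.1), and leaving out each library. Coordinates are from GENCODE 29 and promoters from RefSeq (GRCh38.p14).

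Named members were those with the 6 largest called rises and falls per line, the 4 largest per direction for the difference and the untreated lines, catalytic subunits, alternative forms and ATP5IF1. From other lists up to 6 genes per line with the smallest adjusted p and 7 regulators could be named. Members named beyond this rule (COX5B, NDUFA12, NDUFB3, NDUFB4, NDUFB7, NDUFS5, UQCRB, UQCRC1, UQCRC2, UQCRH, UQCRHL, ATP5F1C, ATP5F1D, ATP5PB and those shown for motifs) were chosen after their values were seen. The members and lists were chosen with earlier results of these data known. The values of 1 member are not reported here, though it stays in the counts.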

Additional observations from a re-analysis of the deposited data

Results flagged for a closer look

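The SRSF2 effect, A549 minus H1650 on the log2 scale, differed between the lines for 18 members by the edgeR test of the difference itself. The A549 effect was above the H1650 effect for 10 of them, among them SDHA (0.548), NDUFV3 (0.526), ATP5MC2 (0.396), ATP5F1A (0.387), ATP5PB (0.314), ATP5F1C (0.198), CYC1 (0.171), NDUFV1 (0.163) and COX6A1 (1.08). It was below the H1650 effect for the other 8, COX6B2 (-2.96), COX7B (-0.419), ATP5IF1 (-0.394), NDUFA5 (-0.254), COX6C (-0.231), NDUFB11 (-0.229), NDUFS4 (-0.21) and COX6B1 (-0.166). Of these, 7 of the 10 above and 4 of the 8 below were called in every alternative and leave-one-out fit. COX6A1 and COX6B2 averaged under 3 CPM in every group. No group had more than 3 libraries, so single outlying libraries were not tested for.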

How the results depend on the processing

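Of 3154 combinations of a named member, a comparison and an alternative, 2975 kept their side of the threshold, 93 lost the call, 86 gained one and 0 called changes turned in sign; some changes not called did, such as COX6B2 in A549 (-0.57 to 0.05 when libraries were left out). In A549, members called higher numbered 1 with each limma-trend fit on FPKM, against 2, and members called lower numbered 17 with RLE factors and with DESeq2, against 11. In H1650, members called higher numbered 5 and lower 32 with plain totals and with log2(FPKM + 1), 5 and 31 with log2(FPKM + 0.1) and 5 and 30 without its filter, and 8 higher with DESeq2 or without the count filter, against 12 and 19. Members with a lower effect in A549 numbered 5 with plain totals and 4 with each FPKM fit, against 8. Plain totals moved the median of all genes by -0.079 in H1650. The FPKM fits used no TMM factors either, so they and plain totals are not separate checks of a call. The median of the members in H1650 was -0.108 with plain totals and -0.107 with log2(FPKM + 0.1), against -0.028 in the main fit. The cause of the FPKM counts was not tested. When each library was left out, higher and lower calls ran from 0 to 3 and 5 to 15 in A549, 7 to 13 and 15 to 19 in H1650, 8 to 12 and 6 to 10 for the difference, and 23 to 24 and 29 to 33 between untreated lines. The fits of each line alone give no difference between effects. Residuals of same-numbered libraries correlated at -0.020 to 0.024, so numbers were not taken as pairs; with a replicate block the counts were 2 and 11 in A549, 12 and 19 in H1650, 9 and 9 for the difference and 24 and 33 between untreated lines. Depth limits COX6B2 and COX6A1, with 5 to 71 counts per library; on the log2(FPKM + 1) scale, which understates low genes, the H1650 change of COX6B2 was 0.41 and the A549 change of COX6A1 0.25.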
